A study of Mus musculus with 6 samples.

Results

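The genes described here encode histone deacetylases, sirtuins, histone demethylases, histone methyltransferases, DNA methylation enzymes and readers of acetylated histones. They were chosen by name, as 41 listed gene symbols of the Hdac, Sirt, Kdm, Kmt2, Tet, Dnmt, Ezh and BET families, and all 41 were found among the 24411 genes that the 6 count tables share. The cells were primary microglia grown from brains of 3-day-old ICR mice, with tissue of 12 mice pooled, and over 92% of them stained for the microglial surface protein CD11b in the submitters' own flow cytometry. In the FTY720 plus LPS group (3 libraries) the cells received 1 µM FTY720 together with 10 ng/ml lipopolysaccharide (LPS), a bacterial cell wall component, with a stated time of 4 h. In the FTY720 group (3 libraries) they received 1 µM FTY720 without LPS. FTY720, also called fingolimod, is a sphingosine analogue used in multiple sclerosis, and both groups carry it, so the comparison measures LPS on an FTY720 background. Cells without FTY720 were not analysed here.

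Histone deacetylases and sirtuins remove acetyl groups from histones and other proteins, demethylases of the Kdm family and methyltransferases of the Kmt2 and Ezh families erase and write methyl marks on histone lysines, and BET proteins bind acetylated histones. Dnmt enzymes place methyl groups on cytosines of DNA, and Tet enzymes oxidise them. In macrophages and microglia these enzymes are known to set how strongly inflammatory genes can be switched on and off after a bacterial signal. FTY720 itself is known to be phosphorylated in cells, and its nuclear phosphorylated form is described as an inhibitor of class I histone deacetylases. Such an action on protein is not visible in mRNA counts.

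Reads assigned to the sense strand of genes numbered between 2431775 and 3454647 per library, and between 1340915 and 2116218 once 3 rRNA-like genes were set aside. Those 3 genes took between 38.2% and 44.9% of gene reads with FTY720 plus LPS and between 28.8% and 59.0% with FTY720 alone. The third FTY720 replicate held the lowest of these shares. It stood apart from the other FTY720 libraries on the second principal component, at -22.4 against 6.49 and 15.2. The third FTY720 plus LPS replicate also stood apart from its group there, at 16 against -7.99 and -7.3. In the third FTY720 replicate genes with transcripts of 10 kb or more stood at a median of -0.23 log2 units from the group mean. In the other FTY720 libraries they stood at 0.10 and 0.13. The LPS treatment was visible in each library: the cytokine genes Tnf and Il1b averaged 2308 ± 93.3 and 2289 ± 82.7 CPM (read counts scaled to a common library size) with LPS, against 27.1 ± 9.05 and 18.8 ± 4.25 CPM without it (SD, n = 3 each). Microglial markers summed to between 4261 and 4841 CPM with FTY720 plus LPS and between 2725 and 2936 CPM with FTY720 alone. All CPM values were scaled by the trimmed mean of M-values (TMM), and replicates are separate RNA samples for which the labels name no separate cultures or animals, so p-values measure the spread between these samples.

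Of the 41 genes, 36 had enough reads to be tested. With LPS 7 of them rose and 11 fell at an adjusted p under 0.05 (edgeR's quasi-likelihood test, Benjamini-Hochberg adjustment over 10124 genes), and 18 did not pass. Of all tested genes 46% passed, 23.3% upward and 22.7% downward, so the share of members called, 50%, was near that of all genes, with 19.4% of members higher and 30.6% lower. The median log2 fold change of the tested members was -0.08, against -0.04 for all tested genes. In 21 members each LPS library lay on the same side of each FTY720 library, set against 54% of all genes tested. At least 2-fold changes past the test were seen upward for Kdm6b, Sirt1 and Brd2, set against 8.49% of all genes. Downward they were seen for Dnmt1, Tet1 and Hdac5, against 9.59% of all genes.

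The split between rises and falls depended on how libraries were scaled. Upper-quartile factors gave 4 rises and 13 falls, and total library size alone gave 3 rises and 12 falls, as the median log2 fold change of all genes moved to -0.17 and to -0.35. Removing the trends on transcript length and GC content, an alternative chosen after seeing the data, gave 9 rises and 10 falls. Kdm6b, Sirt1 and Brd2 among the rises, and Hdac5, Hdac9, Kmt2c, Tet3, Dnmt1 and Dnmt3a among the falls, passed the test in each of 16 alternative fits. Without the third FTY720 replicate 6 members rose and 14 fell. Without the second FTY720 replicate 8 rose and 8 fell, and the same counts came without the second FTY720 plus LPS replicate. The RNA came from whole cultures, in which fewer cells of a type and less RNA per cell cannot be told apart. Markers of the oligodendrocyte lineage summed to between 142 and 163 CPM with FTY720 plus LPS and between 268 and 293 CPM with FTY720 alone, and 5 of their 6 tested genes fell. Neuronal markers summed to between 109 and 119 CPM with LPS and between 191 and 253 CPM without it, and 3 of 4 tested genes fell. Astrocyte markers summed to between 99.4 and 138 CPM with LPS and between 87.1 and 107 CPM without it, with 2 of 6 tested genes up and 1 down. Monocyte and border macrophage markers reached between 310 and 405 CPM with LPS and between 190 and 212 CPM without it. Nearly all of this came from the 2 tested genes, which both rose. F13a1 averaged 239 CPM with LPS and 132 CPM without it, and Mrc1 113 and 68.8 CPM. Ly6c2 was at 0 throughout, and Ccr2, Cd163, Lyve1 and Cd209f averaged at most 1.02 CPM in either group. Fibroblast and mural markers summed to between 18.2 and 29.5 CPM with LPS and between 17.2 and 23.4 CPM without it, with Rgs5 at 0. Of their 3 tested genes edgeR and DESeq2 called 0, and 1 was higher at an unadjusted p under 0.05. The part of these cell types in the members' changes was not tested.

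**Figure D1:**
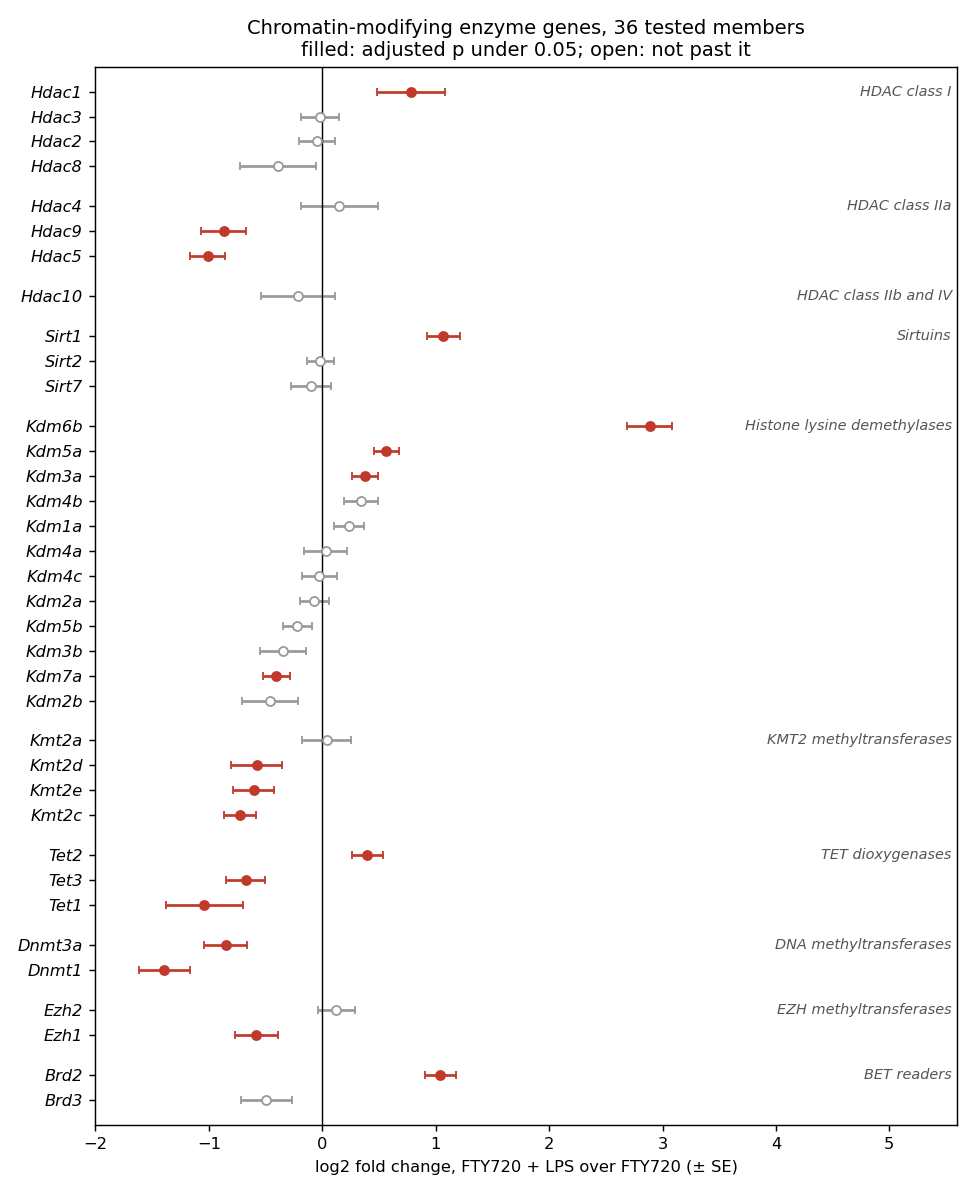
Log2 fold change (x axis, FTY720 plus LPS over FTY720) with its standard error for the 36 tested members, grouped by enzyme family down the page. Filled points passed an adjusted p of 0.05: Kdm6b stands farthest right at 2.89 and Dnmt1 farthest left at -1.39.

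Of the 12 histone lysine demethylases 3 rose and 1 fell. Kdm6b, which encodes the enzyme JMJD3 that removes the Polycomb-linked repressive methyl mark and is a known LPS-inducible gene of macrophages, had 57.8, 70.2 and 82.1 CPM in the 3 FTY720 plus LPS libraries, against 11.0, 11.0 and 6.83 CPM in the 3 FTY720 libraries. Every LPS library lay far above every library without LPS, and the reads behind these values numbered 485 in all with LPS and 95 without it. The gene rose 7.39-fold (log2 fold change 2.89 ± 0.20, SE; edgeR adjusted p = 3.0e-11). It lies at chr11:69398508-69413675 on the minus strand (GRCm38). Its X-linked relative Kdm6a, an enzyme for the same mark and not one of the 41, averaged 88.5 ± 10.4 CPM with LPS and 87.4 ± 10.5 CPM without it (log2 fold change 0.02 ± 0.13, edgeR adjusted p = 0.921).

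Kdm5a, a demethylase of the methyl mark found at active promoters, had 194, 190 and 193 CPM with FTY720 plus LPS, against 121, 132 and 137 CPM with FTY720 alone. The LPS libraries agreed closely among themselves and did not overlap the others, and the gene rose (log2 fold change 0.57 ± 0.11, edgeR adjusted p = 2.04e-04). Kdm3a, which demethylates a repressive lysine of histone H3, had 160, 145 and 139 CPM with LPS and 108, 116 and 118 CPM without it. The groups were apart by a modest step, and the gene rose by 0.38 ± 0.11 log2 units (edgeR adjusted p = 0.00981). Neither rise passed with total library size alone, where Kdm5a was at 0.24 and Kdm3a at 0.05 on the log2 scale. With the trend of fold change on expression level removed, Kdm5a was at 0.12 and Kdm3a at -0.0028. The Kdm3a call was also lost with upper-quartile factors (log2 fold change 0.24, edgeR adjusted p = 0.0767) and without the first FTY720 replicate (0.34, edgeR adjusted p = 0.0586).

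Kdm7a, a plant homeodomain demethylase of repressive marks, moved the other way. It had 123, 118 and 123 CPM with FTY720 plus LPS, against 156, 140 and 184 CPM with FTY720 alone. All LPS libraries were below all others, and the gene fell (log2 fold change -0.41 ± 0.12, edgeR adjusted p = 0.00871). Without the second FTY720 plus LPS replicate its adjusted p was 0.0666. The remaining 8 demethylase members did not pass. The lysine-specific demethylase Kdm1a had 70.9, 76.6 and 65.6 CPM with LPS and 62.4, 59.4 and 59.3 CPM without it, groups that did not overlap (log2 fold change 0.24 ± 0.13, edgeR adjusted p = 0.139). Kdm4b, a demethylase of repressive marks, was close to the threshold, with 54.8, 43.2 and 52.1 CPM with LPS and 41.4, 42.4 and 35.3 CPM without it (log2 fold change 0.34 ± 0.15, edgeR adjusted p = 0.0667). The CpG-island binding demethylases Kdm2a and Kdm2b, and Kdm3b, Kdm4a, Kdm4c and Kdm5b, lay between -0.46 and 0.03 in log2 fold change. Of these, Kdm3b was low in the third FTY720 replicate, at 28.3 CPM beside 45.1 and 51.1 CPM, against 23.9, 34.3 and 39.5 CPM with LPS, and without that replicate it passed the test at -0.58 (edgeR adjusted p = 0.00236).

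Sirtuins, which use NAD as a cofactor, were led by Sirt1, a deacetylase whose targets include the NF-κB subunit p65 and whose gene lies at chr10:63319005-63381704 on the minus strand. Sirt1 had 106, 95.2 and 95.6 CPM with FTY720 plus LPS, against 40.7, 40.1 and 59.1 CPM with FTY720 alone. The groups were well separated although the third FTY720 replicate was higher than its fellows. The gene rose 2.10-fold (log2 fold change 1.07 ± 0.15, edgeR adjusted p = 3.35e-06). The cytoplasmic tubulin deacetylase Sirt2 had 102, 122 and 124 CPM with LPS and 114, 123 and 115 CPM without it, overlapping values with a log2 fold change of -0.02 ± 0.12. The nucleolar Sirt7 averaged 24.8 ± 2.03 CPM with LPS and 26.3 ± 2.23 CPM without it (SD, n = 3 each). Sirt3, Sirt5 and Sirt6 had too few reads to test, at most 4.34 CPM in any library.

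The class IIa deacetylases, which shuttle between nucleus and cytoplasm and act mainly through corepressors, fell in 2 of 3 tested members. Hdac5 (chr11:102194432-102230166, minus strand) had 29.5, 39.8 and 44.6 CPM with FTY720 plus LPS, against 81.8, 76.5 and 69.2 CPM with FTY720 alone. Its groups were far apart, and the gene fell (log2 fold change -1.01 ± 0.15, a 2.01-fold difference, edgeR adjusted p = 1.21e-05). Hdac9 had 15.3, 16.9 and 11.5 CPM with LPS and 30.0, 25.4 and 25.4 CPM without it. Its groups did not overlap either, and it fell by 0.87 log2 units with an SE of 0.20 (edgeR adjusted p = 0.00109). Hdac4 was low and variable, with 6.71, 6.77 and 7.51 CPM with LPS and 5.67, 10.0 and 3.77 CPM without it, and did not pass. Hdac7 had 1.12, 0.846 and 2.503 CPM with LPS and 4.67, 6.01 and 1.88 CPM without it and was not tested.

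Class I deacetylases, of which Hdac1, Hdac2 and Hdac3 are catalytic subunits of the large corepressor complexes, changed in 1 of 4 members. Hdac2 had 45.5, 47.0 and 47.1 CPM with FTY720 plus LPS and 40.4, 42.7 and 59.6 CPM with FTY720 alone, and Hdac3 averaged 36.3 ± 3.08 CPM with LPS and 36.5 ± 7.10 CPM without it (SD, n = 3 each). Their log2 fold changes, -0.05 and -0.02, were within an SE of 0, and Hdac8, at -0.39 ± 0.33, did not pass. Hdac1 had 10.8, 8.04 and 12.0 CPM with LPS and 8.01, 6.01 and 4.24 CPM without it. The groups touched at 8.04 and 8.01 CPM, and the gene rose by 0.78 ± 0.30 log2 units (edgeR adjusted p = 0.0359), a call lost in 6 of 16 alternative fits, where it ranged from 0.48 to 1.36. Of the 50-base windows of its transcript 58.7% also occur in transcripts of other genes, among them Gm10093, so part of its reads cannot be told apart from theirs. Reads that map to several places were counted in a row without a gene name, which was left out. The Hdac1 count may therefore be too low, and its value is uncertain. The class IIb gene Hdac10 had 4.85, 3.81 and 7.01 CPM with LPS and 5.01, 7.01 and 5.89 CPM without it, and Hdac11, the class IV gene, had at most 3.34 CPM in any library and was not tested.

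**Figure D2:**
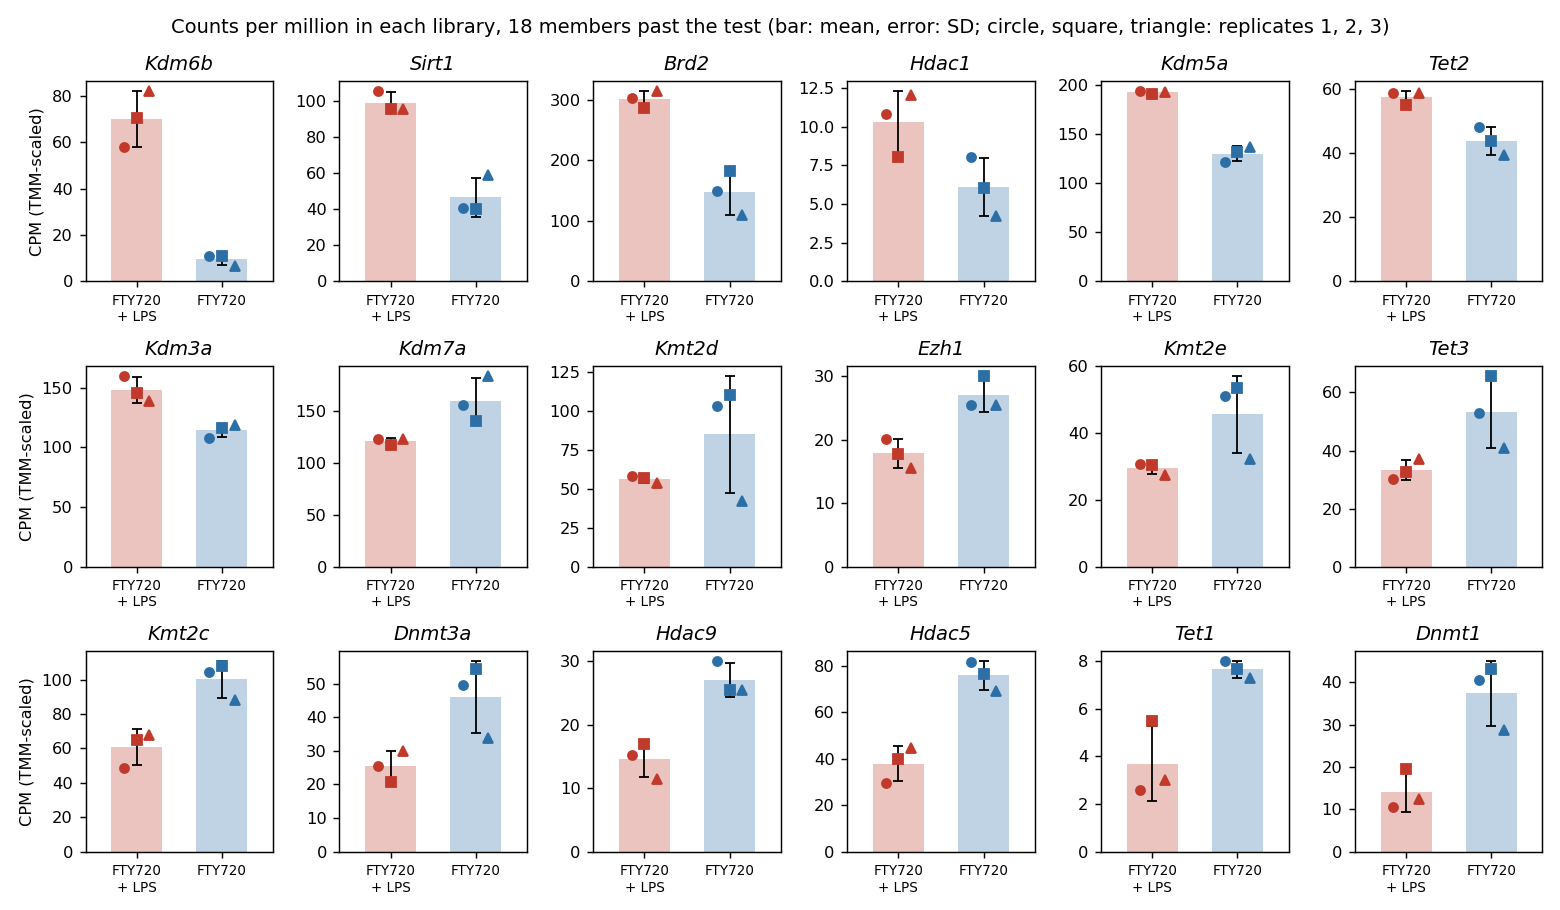
CPM (y axis, TMM-scaled, each panel from 0) in the 3 FTY720 plus LPS libraries and the 3 FTY720 libraries for the 18 members past the test, with bars for the mean, error bars for the SD and symbols for replicates. Kdm6b and Dnmt1 show wide gaps between groups, and in Kmt2d the third FTY720 replicate, at 41.9 CPM, lies below every LPS library.

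DNA methyltransferases fell in both members. Dnmt1 (chr9:20907209-20959888, minus strand), which copies methylation to the new strand after replication, had 10.4, 19.5 and 12.5 CPM with FTY720 plus LPS, against 40.4, 43.1 and 28.7 CPM with FTY720 alone. Dnmt3a, which methylates sites anew, had 25.4, 20.7 and 30.0 CPM with LPS, against 49.7, 54.4 and 33.9 CPM without it. In both genes every LPS library was below every other library, and the third FTY720 replicate was the lowest of its group. Dnmt1 fell by 1.39 log2 units with an SE of 0.22 (2.62-fold, edgeR adjusted p = 2.18e-05) and Dnmt3a by 0.85 with an SE of 0.19 (edgeR adjusted p = 8.97e-04). Dnmt1 is known to be high in dividing cells, and of 12 tested proliferation genes Mcm2, Mcm3 and Mcm6, parts of the replication helicase, also fell. The division marker Mki67 averaged 8.05 ± 2.05 CPM with LPS and 7.75 ± 2.57 CPM without it (edgeR adjusted p = 0.875), while Pcna, the DNA sliding clamp, rose to 296 ± 21.1 CPM with LPS, against 82.4 ± 10.8 CPM without it (SD, n = 3 each). The whole proliferation list summed to between 379 and 422 CPM with LPS and between 186 and 223 CPM without it. Without Pcna the other 14 genes summed to between 102 and 103 CPM with LPS and between 108 and 128 CPM without it, and their part in the Dnmt1 change was not tested.

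The TET dioxygenases split. Tet2, the family member most studied in myeloid cells, had 58.6, 55.0 and 58.6 CPM with FTY720 plus LPS, against 48.1, 43.7 and 39.3 CPM with FTY720 alone. Tet3 had 30.2, 32.6 and 37.0 CPM with LPS, against 53.1, 65.8 and 41.0 CPM without it, and Tet1, the least abundant of them, had 2.61, 5.50 and 3.00 CPM with LPS, against 8.01, 7.68 and 7.30 CPM without it. No TET gene overlapped between groups: the LPS libraries were the higher ones for Tet2 and the lower ones for Tet3 and Tet1. Tet2 rose (log2 fold change 0.40 ± 0.14, edgeR adjusted p = 0.0235), Tet3 fell (-0.67 ± 0.17, edgeR adjusted p = 0.00289) and Tet1 fell (-1.04 ± 0.34, edgeR adjusted p = 0.0155). The Tet2 call was lost in 6 of 16 alternative fits, among them 3 other scalings or offsets in which its log2 fold change lay between 0.09 and 0.29. The Tet1 call was lost in 4, with log2 fold changes over all alternatives between -1.43 and -0.72.

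Methyltransferases of the KMT2 family, large proteins of the complexes that mark enhancers and promoters, fell in 3 of 4 members. Kmt2c, an enhancer methyltransferase, had 48.9, 65.2 and 68.1 CPM with FTY720 plus LPS, against 104, 108 and 88.0 CPM with FTY720 alone, with no overlap, and fell by 0.73 log2 units with an SE of 0.14 (edgeR adjusted p = 2.26e-04). Kmt2e, a family member not known for strong methyltransferase activity, had 30.6, 30.5 and 27.5 CPM with LPS and 51.1, 53.4 and 32.3 CPM without it, again with no overlap (log2 fold change -0.60 ± 0.18, edgeR adjusted p = 0.00976). The Kmt2e call was lost without the first FTY720 replicate, without the second and without the third FTY720 plus LPS replicate, with edgeR adjusted p-values of 0.0514, 0.0567 and 0.0581. Kmt2d, the close relative of Kmt2c, had 58.2, 56.7 and 53.6 CPM with LPS and 103, 110 and 41.9 CPM without it. Here the groups overlapped, because the third FTY720 replicate was below all LPS libraries, and the fall passed narrowly (-0.58 ± 0.23, edgeR adjusted p = 0.0413). The Kmt2d call was lost in 7 of 16 alternative fits, and its log2 fold change was -0.10 with the trends on transcript length and GC content removed and -0.92 without the third FTY720 replicate.

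Kmt2a, also called MLL1, showed the same outlying library, with 58.2, 49.1 and 72.6 CPM with FTY720 plus LPS and 69.7, 75.1 and 32.0 CPM with FTY720 alone, and did not pass (log2 fold change 0.04 ± 0.22). Over all genes with transcripts of 10 kb or more the median log2 fold change was -0.29 (277 genes), against 0.20 for transcripts under 2 kb. In the fit without the length and GC trends Kmt2c was at -0.52 and Kmt2e at -0.49, both past the test.

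Of the EZH pair, the catalytic subunits of Polycomb repressive complex 2, Ezh1 had 20.1, 17.8 and 15.5 CPM with FTY720 plus LPS, against 25.4, 30.0 and 25.4 CPM with FTY720 alone. The groups did not overlap, and Ezh1 fell (log2 fold change -0.58 ± 0.19, edgeR adjusted p = 0.0143), a call lost in 4 of 16 alternative fits. Ezh2 had 32.5, 33.4 and 39.5 CPM with LPS and 30.7, 28.7 and 36.3 CPM without it, overlapping values that did not pass (0.12 ± 0.16). Of the BET readers, Brd2 (chr17:34112023-34122634, minus strand) had 304, 287 and 314 CPM with LPS, against 150, 183 and 109 CPM without it. Every LPS library was far above the others, and Brd2 rose 2.06-fold (log2 fold change 1.04 ± 0.14, edgeR adjusted p = 1.90e-06). With the trend on expression level removed its log2 fold change was 0.50 (edgeR adjusted p = 0.0135). Brd3 had 14.9, 11.0 and 16.5 CPM with LPS and 20.4, 24.4 and 15.5 CPM without it, which overlapped (-0.49 ± 0.23, edgeR adjusted p = 0.0789).

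Per kilobase of exon, the scale on which genes can be ranked, Brd2 was the most abundant member with FTY720 plus LPS, at 60.8 ± 2.75 CPM per kb, followed by Sirt2 at 51.5 ± 5.35, Kdm3a at 29.6 ± 2.14, Kdm1a at 23.1 ± 1.79 and Sirt1 at 22.3 ± 1.32 CPM per kb (SD, n = 3 each). Kdm1a and Sirt1 differed by less than their SDs. With FTY720 alone Sirt2 led at 52.0 ± 2.14 CPM per kb, ahead of Brd2 at 29.7 ± 7.44, Kdm3a at 22.8 ± 1.07, Kdm1a at 19.7 ± 0.57 and Hdac3 at 18.0 ± 3.50 CPM per kb, and Brd2 and Kdm3a were closer than the SD of Brd2. Kdm6b stood in place 13 of 41 with LPS and place 35 without it, and Sirt1 in place 5 and place 12. Hdac5 stood in place 18 with LPS and place 8 without it, and Dnmt1 in place 30 and place 21. Sirt5, Tet1, Hdac7, Hdac11 and Hdac4 were the 5 lowest with LPS, all under 1 CPM per kb.

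**Figure D3:**
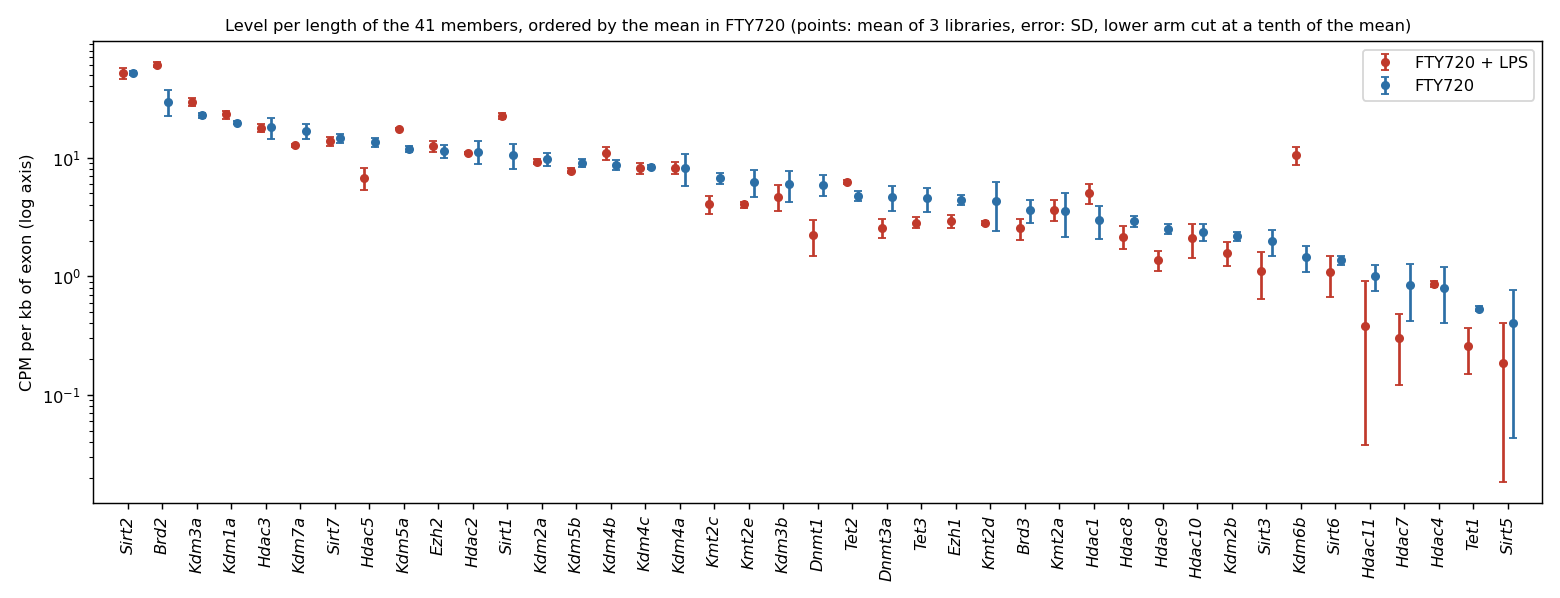
Mean CPM per kb of exon (log y axis) with SD for all 41 members, ordered by the mean in FTY720 libraries, with FTY720 plus LPS left of FTY720 for each gene. Kdm6b, at 10.5 CPM per kb with LPS and 1.45 without it, stands out among otherwise low members on the right.

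Ratios of related genes within a library do not depend on how libraries are scaled, and 8 such pairs were compared. Reads of Kdm6b per read of Kdm6a were 0.606, 0.752 and 1.07 with FTY720 plus LPS, against 0.127, 0.145 and 0.071 with FTY720 alone. Reads of Brd2 per read of Brd3 were 20.1, 25.6 and 18.7 with LPS, against 7.31, 7.45 and 6.97 without it, and reads of Sirt1 per read of Sirt2 were 1.03, 0.782 and 0.771 with LPS, against 0.358, 0.327 and 0.515 without it. In these pairs all LPS libraries lay above all others. The balance of Tet2 over Tet3 was 1.93, 1.68 and 1.58 with LPS, against 0.906, 0.666 and 0.960 without it, so that Tet2 had more reads than Tet3 in each LPS library and fewer in each FTY720 library. Kdm5a over Kdm5b averaged 2.70 with LPS and 1.57 without it, and Ezh2 over Ezh1 averaged 2.00 with LPS and 1.20 without it, also with no overlap. The ratios of Kdm3a to Kdm3b and of Dnmt3a to Dnmt1 overlapped between groups. These 8 pairs were chosen with earlier results known, and 6 of them with no overlap, beside 54% of single genes, are a description only.

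**Figure D4:**
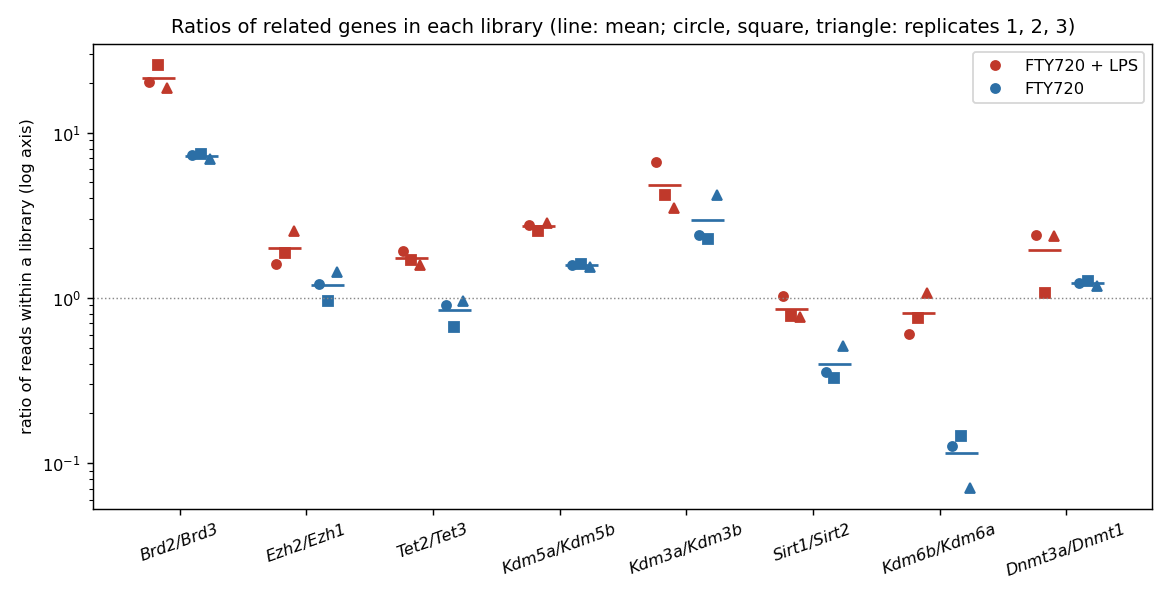
Ratio of sense reads of related genes within each library (log y axis) for 8 pairs, with FTY720 plus LPS left of FTY720 and lines at the means. Kdm6b over Kdm6a shows the widest gap, 0.81 against 0.115 on average, and Kdm3a over Kdm3b and Dnmt3a over Dnmt1 overlap.

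Genes that work with the members were read from lists of partners. Of 32 tested HDAC corepressor partners 8 rose and 6 fell, with a median log2 fold change of 0.06 beside -0.04 for all genes. That is 43.8% called, near the 46% of all tested genes (23.3% higher, 22.7% lower), against which the counts of the other lists can be read too. The largest changes among them were rises of Sap30, a Sin3 complex subunit, to 59.1 ± 5.21 CPM with LPS, against 22.2 ± 3.06 CPM without it (log2 fold change 1.40 ± 0.16, edgeR adjusted p = 1.53e-07), and of Chd4, the NuRD remodeller, to 485 ± 14.1 CPM, against 187 ± 30.7 CPM (1.38 ± 0.12, edgeR adjusted p = 1.7e-09). Of 15 histone acetyltransferases, the enzymes opposing the deacetylases, 1 rose and 6 fell (median -0.26), led by Ncoa1 at 19.3 ± 4.55 CPM with LPS and 43.2 ± 2.77 CPM without it and Kat2a at 5.14 ± 1.17 CPM with LPS and 11.4 ± 1.56 CPM without it. Their log2 fold changes were -1.18 and -1.11.

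Polycomb partners, the companions of Ezh1 and Ezh2, split into 7 rises and 9 falls among 26 tested genes (median -0.10). The chromodomain gene Cbx7 averaged 1.40 ± 1.36 CPM with LPS and 8.84 ± 1.795 CPM without it and fell (log2 fold change -2.62 ± 0.44, edgeR adjusted p = 4.48e-05). It had only 2, 7 and 1 reads with LPS, against 22, 25 and 46 without it, so the size of its fall is uncertain. Partners of the KMT2 complexes gave 1 rise and 4 falls among 14 tested genes (median -0.28), with the coactivator Ncoa6 at -1.34 and the methyltransferase subunit Setd1b at -0.94. Other histone and arginine methyltransferases gave 3 rises and 13 falls among 24 tested genes (median -0.56), with Smyd5 at -1.54 and Nsd1 at -1.42. Readers of DNA methylation and the repair enzymes that act after TET gave 1 rise and 6 falls among 11 tested genes (median -0.47), with the methyl-CpG binding zinc finger genes Zbtb4 at -1.66 and Zbtb38 at -1.39. All of these named genes passed the test. Over the 7 lists, family members outside the 41 included, 21 of 137 tested genes rose and 47 fell, and with total library size alone 8 rose and 51 fell.

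Of 15 tested family members outside the 41, none rose and 3 fell by edgeR's test (20% called, beside 46% of all genes), namely the demethylase family genes Phf2 (log2 fold change -0.96), Hr (-0.88) and Uty (-0.58). At an unadjusted p under 0.05 also 0 of the 15 were higher and 3 lower, and DESeq2 called 0 higher and 1 lower. The other 12, among them Hdac6, Kdm1b, Kdm5c, Kdm5d, Kdm6a, Jmjd1c, Jmjd6, Phf8, Mina, Kmt2b and Dnmt3b, lay between -0.42 and 0.32 and did not pass. Dnmt3b, the other de novo DNA methyltransferase, averaged 4.47 ± 3.17 CPM with LPS and 4.77 ± 2.66 CPM without it (SD, n = 3 each).

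**Figure D5:**
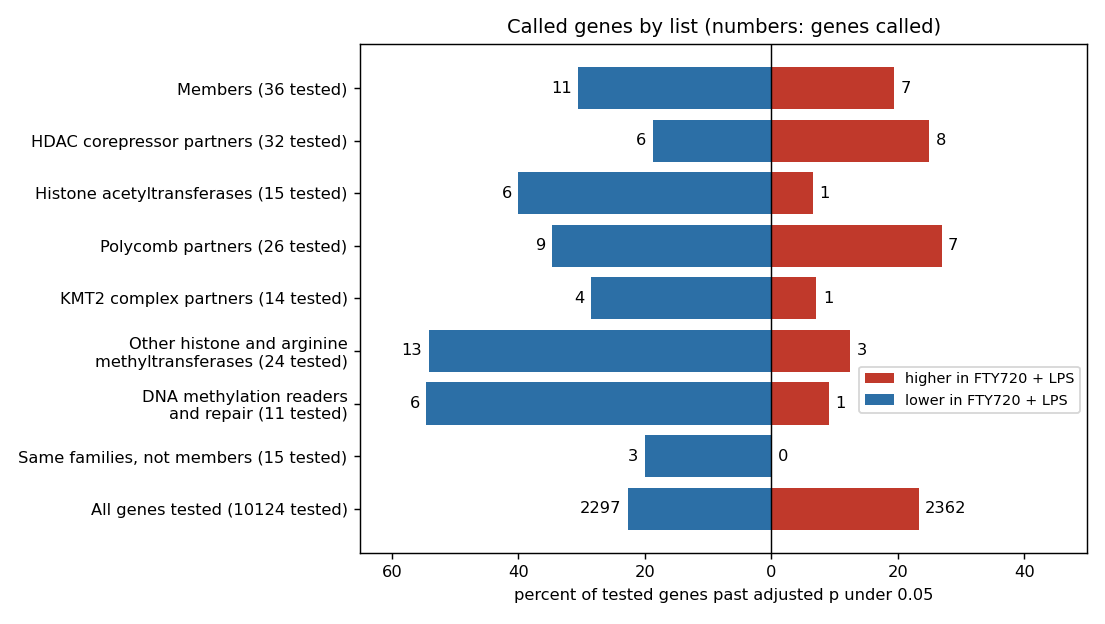
Percent of tested genes past an adjusted p of 0.05 (x axis), lower in FTY720 plus LPS drawn to the left and higher drawn to the right, for the members, each partner list and all tested genes, with the number of genes beside each bar. Other histone and arginine methyltransferases, with 13 falls, and readers of DNA methylation and repair, with 6, have the longest bars to the left.

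Promoters of 32 members matched RefSeq's table (GRCm38.p6), at 50 start sites, each with 250 bases before and 50 after the start. Kdm6b, Kdm5a, Hdac1, Kmt2e, Kdm2a, Kdm3b, Kdm4b, Hdac3 and Hdac10 had no entry, so nothing below covers their promoters. The matched windows were rich in CpG, the dinucleotide that Dnmt and Tet enzymes act on. Their median was 23.5 CpG per window, against 7 over all 32851 promoters, and their median GC content was 63.2%, against 52.7%. All promoters here include those of genes without reads in these cells, and promoters of expressed genes alone were not compared. A gene with several start sites was counted once for each. The GC box GGGCGG was found on either strand in 64% of member windows and in 35.7% of all, and the E-box CACGTG in 8% and in 7.15%. The AP-1 letters TGANTCA were found in 10% of member windows and in 7.81% of all. The cyclic AMP response element TGACGTCA, the NF-κB letters GGGA and TTCC set 2 bases apart and the interferon response letters GAAA repeated after 2 bases were in no member window and in 1.79%, 1.47% and 3.44% of all windows. A match is only a run of letters, and its absence says nothing about binding.

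Sirt1, Hdac5 and Tet1, members with at least 2-fold changes, have a single start site in the table, and their 250 bases before the start are shown 5′ to 3′ as examples of windows that differ in CpG content: Sirt1 at chr10:63339036-63339285, Hdac5 at chr11:102230173-102230422 and Tet1 at chr10:62887325-62887574 (GRCm38.p6, all on the minus strand, RefSeq). The Sirt1 and Tet1 windows lie inside the spans that GENCODE gives these genes, chr10:63319005-63381704 and chr10:62804570-62908996. For both genes the GENCODE span therefore begins further upstream than the start site used here. Capitals mark the E-box and the GC box, the second read as GGGCGG or CCGCCC. The first run of capitals in Sirt1 is a pair of GC boxes that overlap.
Sirt1: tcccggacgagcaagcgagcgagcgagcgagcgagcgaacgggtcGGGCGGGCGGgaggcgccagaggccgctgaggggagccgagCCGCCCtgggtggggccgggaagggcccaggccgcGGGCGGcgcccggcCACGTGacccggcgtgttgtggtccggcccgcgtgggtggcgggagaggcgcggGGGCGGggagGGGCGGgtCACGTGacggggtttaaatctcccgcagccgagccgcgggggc
Hdac5: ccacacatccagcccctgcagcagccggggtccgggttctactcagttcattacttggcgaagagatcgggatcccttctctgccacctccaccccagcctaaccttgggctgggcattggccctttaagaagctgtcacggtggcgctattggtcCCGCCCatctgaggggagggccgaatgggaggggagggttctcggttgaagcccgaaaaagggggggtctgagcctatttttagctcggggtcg
Tet1: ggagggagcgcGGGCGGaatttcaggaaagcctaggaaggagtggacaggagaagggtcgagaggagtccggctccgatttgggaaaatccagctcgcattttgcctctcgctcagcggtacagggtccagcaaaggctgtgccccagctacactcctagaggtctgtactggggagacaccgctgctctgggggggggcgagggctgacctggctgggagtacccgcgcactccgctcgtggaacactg
The Sirt1 sequence holds 39 CpG, 6 GC boxes and 2 E-boxes, at positions -115 and -43 from the start. Hdac5 has 12 CpG and 1 GC box, and Tet1 has 15 CpG and 1 GC box. In windows of 300 bases Sirt1 and Tet2, which rose, hold 47 and 57 CpG, Brd2 14 to 32 and Kdm3a 0 to 40. Of the members that fell, Kdm7a and Kmt2c hold 65 and 56, Dnmt3a 18 to 47 and Kmt2d 27. Ezh1, Tet3, Hdac5 and Tet1, which also fell, hold 23, 22, 18 and 17, Dnmt1 2 to 33 and Hdac9 0 to 3.

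The libraries keep strand, so reads opposite to each gene could be read apart. Members had 429 opposite-strand reads with FTY720 plus LPS and 332 with FTY720 alone, beside 14408 and 19682 sense reads. Of 25 members with at least 10 such reads, 10 were higher in CPM in every LPS library than in any FTY720 library, beside 19.7% of all genes with at least 10 such reads, and Hdac7 was lower throughout, beside 5.28%. Hdac1 had 22, 16 and 12 opposite-strand reads with LPS, against 3, 1 and 2 without it, beside 29, 19 and 24 sense reads with LPS and 24, 18 and 18 without it. The nearest gene on the other strand, Marcksl1, lies 119 bp away and averaged 427 CPM with LPS and 52.4 CPM without it, and its part in these reads was not tested.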

How the data were processed

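RNA-seq libraries of 6 RNA samples were compared, 3 with FTY720 plus LPS and 3 with FTY720. The deposited values are counts of reads per gene, in the layout that STAR's gene counting by the authors gives. Tools listed in the submitters' processing notes are STAR 2.5.1, Trimmomatic 0.33 and CASAVA 1.8.2, with DESeq2 and the build mm10; no source used here gives the gene annotation. Per the labels' protocols RNA was depleted of ribosomal RNA and libraries keep strand; the column with 98.4% to 98.9% of stranded gene reads was used as sense counts. Rows that name no gene held 74.5% to 79.2% of reads and were left out. Genes passing edgeR's filter with a minimum of 10 counts (10124 of 24411) were fitted in edgeR 4.0.16 (R 4.3.3; TMM factors, quasi-likelihood test, Benjamini-Hochberg over all tested genes, threshold 0.05); DESeq2 1.42.0 and other scalings were alternatives, and the edgeR procedure was tested on simulated data. A fold change is FTY720 plus LPS over FTY720. Positions came from GENCODE on GRCm38. Ratios of reads used a pseudocount of 0.5 and length classes a pseudocount of 1. Every member is described and those past the threshold have values in each library; of each partner list the called genes with the largest fold changes, up to 2, are named, and tested family members outside the 41, except genes that are not reported here. The 41 members, the partner and marker lists, the gene pairs and the motifs were chosen with earlier results of these data known. Within a group no pair of libraries agreed within sampling noise. Errors of CPM values are SDs, the spread between libraries. Errors of log2 fold changes are SEs from edgeR's fitted model, the size of the change divided by the square root of its F statistic. No intervals from counting are given.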

Additional observations from a re-analysis of the deposited data

Results flagged for a closer look

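Reads on the strand opposite to a member, which no comparison of sense expression uses, were higher in CPM in every FTY720 plus LPS library than in any FTY720 library for 9 of the 41 members, each with at least 10 such reads summed over the LPS libraries. With the minimum set on all 6 libraries, 10 of 25 members were higher in this way, beside 19.7% of all genes. Summed over 3 libraries each, Hdac1 had 50 opposite-strand reads with LPS and 6 without it, and Kdm7a had 50 and 16. Kdm1a had 42 with LPS and 25 without it, and Kmt2e had 42 and 32. Brd2 had 28 with LPS and 21 without it, Sirt1 had 23 and 17, and Kdm3a had 22 and 6. Sirt3 had 11 with LPS and 6 without it, and Ezh2 had 11 and 8. As a share of the reads of both strands, Hdac1 stood at 41.0% with LPS and 9.09% without it. For Brd2 this share was 1.30% with LPS and 1.42% without it, and for Sirt1 3.19% and 3.33%. In these 2 genes it did not rise, as their sense reads rose too. For the other flagged members the share was higher with LPS. The Kdm3a sum rests on the first LPS replicate, with 15 of its reads, beside 4 and 3 in the other LPS libraries. Kdm7a overlaps 4930599N23Rik, annotated as antisense to it, and had 15, 20 and 15 such reads with LPS, against 2, 5 and 9 without it. No test is given for these members, since the minimum was set on the LPS libraries.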

How the results depend on the processing

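Of 576 member log2 fold changes over 16 alternatives, 36 lost a call, 12 gained one and 34 changed sign, of which 1, Kdm3a, had been past the threshold. Members higher numbered 7, and 4 with upper-quartile factors, 3 with total library size alone and 4 with the expression trend removed. With the length and GC trend removed 9 were higher and 10 lower. Leaving out 1 library gave 5 to 8 higher and 8 to 14 lower. Calls over all genes came to 2362 upward, against 766 when only the library total set the scale, and to 2297 downward, against 1274 with DESeq2, and leaving out 1 library gave 2043 to 2722 higher and 1700 to 2495 lower. Partner genes higher numbered 21, and 8 with total library size alone; 47 were lower, and 31 with DESeq2, with 16 to 25 higher and 32 to 53 lower when 1 library was left out. Among all calls 50.7% were upward, and 38.8% with upper-quartile factors and 22.2% with total library size alone. Values that changed sign, on the log2 scale, were Kdm4a -0.10, Kmt2a -0.10 and Ezh2 -0.0097 with upper-quartile factors; Hdac4 -0.11, Kdm1a -0.082, Kdm4a -0.24, Kmt2a -0.22 and Ezh2 -0.22 with total library size alone; and Hdac10 0.10, Kdm3a -0.0028, Kdm4a -0.036 and Kmt2a -0.11 with the expression trend removed. With the length and GC trend removed, an alternative chosen after seeing the data, Sirt2 was at 0.026, Sirt7 at 0.053 and Kdm2a at 0.13. With DESeq2 Hdac3 was at 0.014, Sirt2 at 0.013 and Kdm4c at 0.0065. Leaving out 1 library gave ranges that crossed 0 for Hdac2 (-0.15 to 0.16), Hdac3 (-0.17 to 0.083), Hdac4 (-0.17 to 0.62), Sirt2 (-0.041 to 0.099), Kdm2a (-0.17 to 0.0015), Kdm4a (-0.21 to 0.23), Kdm4c (-0.087 to 0.062) and Kmt2a (-0.28 to 0.28). The replicate numbers in the labels gave no pairing: deviations of same-numbered libraries correlated at -0.022, -0.026 and -0.073 over genes, and not every library correlated best with its own number. With the replicate number as a block 7 members were higher and 11 lower, 2292 and 2171 of all genes and 21 and 48 partner genes, and Hdac3 was at 0.0027. The cause of these differences was not tested. Depth limits the low members: 5 of 41 had too few reads to test, and 3 reads correspond to 0.868 to 1.23 CPM per library.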
